A study of Mus musculus with 6 samples.

Results

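The diet response described here is what the livers of HFC-fed mice had in common against chow-fed mice, whichever drug they received. It was read on 6 two-colour oligonucleotide arrays, all the arrays of the series, each carrying liver RNA of 1 mouse against 1 shared pool of liver RNA from 6 mice on standard chow. Members of the response were genes and unnamed probes with the same sign on every array used, and 2712 of the 18795 features with values there met this rule (14.4%), of which 1376 lay above 0 (7.32%) and 1336 below (7.11%). Of features read on 6 arrays 1160 of 9686 met it (12%). Of those read on 5, without the second HFC array, 1552 of 9109 did (17%), where fewer signs must match. A contrast of the group means against 0, with HFC and lovastatin at a weight of 0.25 each and fenofibrate at 0.5, gave each feature its size and test, so that both dye orientations counted equally. The size is thus a weighted mean over the groups and also holds any effect of the drugs, that of fenofibrate at a weight of 0.5. It is not the size of the diet effect alone, and the test asks only whether this mean differs from 0.

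All mice were C57BL/6, 7 weeks old, and ate their diet for 12 days. The sample names speak of a high-fat diet, and the composition of the HFC diet was not given in the sources used here. Per the series' design text, the HFC-fed mice were dosed by mouth once daily from day 5. Here 1 arm got vehicle alone, 1 got 30 mg/kg of lovastatin and 1 got 100 mg/kg of fenofibrate, with 2 arrays each, while the chow mice got vehicle over the whole 12 days. Lovastatin is a statin, a drug class that blocks cholesterol synthesis. Fenofibrate is a prodrug of a ligand for PPARα, the receptor that switches on fatty acid oxidation. For the lovastatin mice 1 label, the treatment text, speaks of fenofibrate, and the titles and source names, which say lovastatin, were followed. The chow mice are present only as 1 pool, so the spread between chow mice is not part of any test. No intensities were used here, so the labelled tissue could be checked against its markers only as ratios, not as levels.

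Each value is a log ratio of mouse over chow pool, taken as log2, on which a step of 1 is a doubling. That the mouse stands over the pool is a likely reading, taken from the order of the channels in the labels, which do not state it. Cy5 marked the mouse in the HFC and lovastatin groups and Cy3 in the fenofibrate group, so fenofibrate and dye cannot be told apart in a comparison of groups. On HFC replicate 2, 4 blocks of array columns hold values displaced along the rows (correlation with the other arrays -0.04 to 0.03, and 0.304 to 0.323 once rotated back). They cover 10703 of 21288 probes (50.28%) and were left out, so that 9473 features rest on 5 arrays. The SD over probes was 0.419 to 0.570 on 5 arrays and 1.09 on lovastatin replicate 1, whose correlation with the other lovastatin array was 0.189.

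A liver that receives cholesterol and fat with the diet is known to retain sterols in the endoplasmic reticulum, where INSIG proteins then hold the SREBP transcription factors back from the genes of cholesterol synthesis. Oxidised sterols activate LXR, which raises sterol export, and bile acids activate FXR, which lowers bile acid synthesis. Fatty acids are ligands of PPARα and raise enzymes that oxidise them, and bile acids and other lipids can reach PXR and CAR, the receptors that govern drug-metabolising enzymes.

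By limma with Benjamini-Hochberg adjustment, 110 of 19447 features passed an adjusted p of 0.05 in the shared diet contrast (0.566% of those tested). Of these, 33 were higher in the HFC-fed mice (0.17%) and 77 lower (0.396%), and 101 were named genes, 31 higher and 70 lower. All 110 had the same sign on every array used, 71 on 6 arrays and 39 on 5. For 37 of those 39 a value of HFC replicate 2 could be read after rotation, and it had the sign of the other arrays in 37 of 37. The smallest of these values was -0.02, for Acacb. They had no part in the fit, but each block was rotated to the shift that correlated best with the mean of other arrays. The match in sign is therefore not an independent check. The calls depended on the arrays: 0 features passed without fenofibrate replicate 1 or without fenofibrate replicate 2, 5 without HFC replicate 1 (where 71 of the 110 still had a value), 25 without HFC replicate 2, 228 without lovastatin replicate 1 and 966 without lovastatin replicate 2. Without both HFC replicate 2 and lovastatin replicate 1, the arrays that stand apart from their replicates, 22 passed. With the replicate number as a block, 0 passed. Leaving out any 1 array moved the value of no called feature by more than 0.235 (median of the largest shifts 0.096). Their sign could not turn in this way, because it is the same on every array used. The smallest called change was 0.854, and 42 called features had a change of 2 or more.

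**Figure D1:**
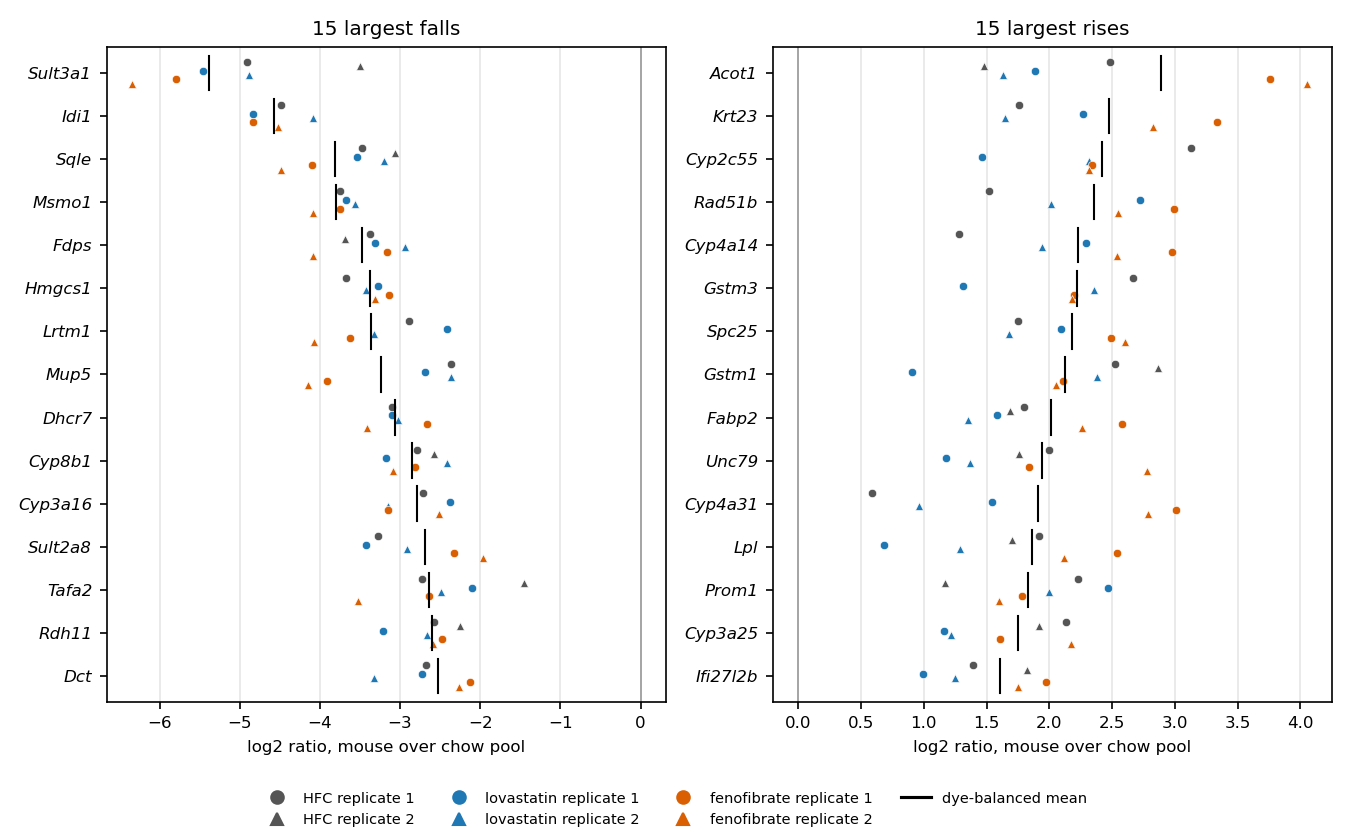
The 15 largest falls (left) and 15 largest rises (right) among named genes past the threshold, each row a gene, the x axis the log2 ratio of mouse over chow pool. Circles and triangles are the replicates of the HFC (grey), lovastatin (blue) and fenofibrate (orange) groups, and the black bar is the dye-balanced mean, from -5.38 for Sult3a1 to 2.89 for Acot1. No point crosses 0, and where a grey triangle is missing HFC replicate 2 was left out.

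Cholesterol synthesis was the pathway with the most genes lower. Of 17 measured members, 12 fell and 0 rose (background 0.396% lower), 16 lay below 0 on every array used, and the median was -2.18 against 0.01 over all features. Before their values, the promoters of 4 of the genes that fell are shown. They were picked because they carry CCAAT and GGGCGG, short motifs that sterol-responsive promoters share with many other promoters. Each is the 250 bases before a RefSeq start (GRCm38.p6), read 5′ to 3′ on the gene's strand, with CCAAT (bound by NF-Y), GGGCGG (bound by Sp1) and CACGTG (an E-box) in capitals on either strand, so that ATTGG and CCGCCC stand for the reverse complements.
Hmgcs1, chr13:119690101-119690350, plus strand: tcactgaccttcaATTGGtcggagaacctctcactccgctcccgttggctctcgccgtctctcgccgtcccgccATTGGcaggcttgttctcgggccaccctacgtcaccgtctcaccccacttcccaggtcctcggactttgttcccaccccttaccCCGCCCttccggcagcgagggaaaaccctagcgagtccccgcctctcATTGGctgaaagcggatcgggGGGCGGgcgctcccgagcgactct
Idi1, chr13:8885356-8885605, plus strand: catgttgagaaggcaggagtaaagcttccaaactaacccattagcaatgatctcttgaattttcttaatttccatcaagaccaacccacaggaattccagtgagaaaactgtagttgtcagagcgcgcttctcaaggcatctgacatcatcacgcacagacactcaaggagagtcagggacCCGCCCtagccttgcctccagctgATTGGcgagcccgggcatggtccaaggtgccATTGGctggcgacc
Msmo1, chr8:64733579-64733828, minus strand: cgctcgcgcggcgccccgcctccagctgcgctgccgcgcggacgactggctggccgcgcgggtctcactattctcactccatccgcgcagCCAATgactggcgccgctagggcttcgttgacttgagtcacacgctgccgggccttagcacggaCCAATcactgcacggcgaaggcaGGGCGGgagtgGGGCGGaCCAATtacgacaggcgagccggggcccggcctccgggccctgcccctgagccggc
Hsd17b7, chr1:169969206-169969455, minus strand: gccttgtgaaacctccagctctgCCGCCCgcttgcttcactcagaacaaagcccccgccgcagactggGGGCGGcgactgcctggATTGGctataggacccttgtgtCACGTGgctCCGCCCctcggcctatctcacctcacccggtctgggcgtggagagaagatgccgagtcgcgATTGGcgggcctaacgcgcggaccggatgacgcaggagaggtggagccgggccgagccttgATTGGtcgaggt

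These stretches hold 3, 2, 3 and 3 CCAAT matches and 2, 1, 2 and 3 GGGCGG matches in the order printed, and Hsd17b7 holds 1 CACGTG. Windows of 300 bases (250 before the start and 50 after) were matched for 75 of the 101 named genes past the threshold, with Sqle, Fdps and Cyp7a1 among those without an entry. CCAAT was present in 9 of 12 windows of the cholesterol synthesis genes that fell (75%), in 59.3% of the windows of the other genes that fell, in 54.8% of the windows of genes that rose and in 37.4% of all 32851 windows. GGGCGG was present in 75%, 37%, 35.5% and 35.7% of the same sets, and CACGTG in 25%, 3.7%, 3.23% and 7.15%. Exact direct repeats of AGGTCA with 1 base between (a form bound by PPARα) or 4 (a form bound by LXR) were found in 0 windows of called genes and in 0.0396% and 0.0152% of all windows. The sterol regulatory element, a site bound by SREBP, was searched for in 1 exact form. It was found in 0 of the 12 windows of the cholesterol synthesis genes that fell. It was also found in 0 windows of the other called genes and in 0.0913% of all windows. A form this rare cannot decide in so few windows whether these promoters answer to sterols. Several windows belong to 1 gene where it has several starts, so windows are not independent, and a match is a run of letters, not a binding site.

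The enzymes of cholesterol synthesis are taken in pathway order. Hmgcs1, HMG-CoA synthase, was at -3.67 on HFC replicate 1, -3.28 and -3.43 on the lovastatin arrays and -3.14 and -3.31 on the fenofibrate arrays (mean -3.37, SE 0.124, limma adjusted p = 0.00835). Mvk, mevalonate kinase, was the only member to cross 0, with -1.18 and 0.02 on the HFC arrays, 0.36 and -1.60 with lovastatin and -1.01 and -1.88 with fenofibrate (limma adjusted p = 0.371). Its values above 0 lie on the arrays that stand apart. Pmvk, phosphomevalonate kinase, read -1.92 and -2.50 on HFC, -1.98 and -1.91 on lovastatin and -1.79 and -2.66 on fenofibrate arrays, which overlap (mean -2.15, limma adjusted p = 0.0207). Idi1, the isopentenyl diphosphate isomerase, had the largest fall of the pathway, with -4.48 on HFC replicate 1, -4.83 and -4.08 on lovastatin and -4.83 and -4.52 on fenofibrate arrays (mean -4.57, SE 0.175, limma adjusted p = 0.00835). The groups again overlap, and HFC replicate 2 read -4.27 after rotation.

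Fdps, which makes farnesyl diphosphate, was at -3.38 and -3.69 in HFC, -3.31 and -2.94 in lovastatin and -3.16 and -4.09 in fenofibrate mice (mean -3.48, SE 0.170, limma adjusted p = 0.00795). Sqle, squalene epoxidase, was at -3.48 and -3.06, -3.54 and -3.20, and -4.10 and -4.49 in the same order (mean -3.81, SE 0.133, limma adjusted p = 0.00795). Here both fenofibrate arrays lie below the other 4, while no group is set apart for Fdps. Between these enzymes, Fdft1, squalene synthase, fell as well (-2.18, limma adjusted p = 0.0209). Msmo1, a sterol methyl oxidase and one of the printed promoters, spanned only -4.08 to -3.56 over 5 arrays (mean -3.80, SE 0.131), and HFC replicate 2 read -4.13 after rotation. Dhcr7, the last reductase of the pathway, was at -3.10, -3.10, -3.02, -2.66 and -3.41 on HFC replicate 1, the lovastatin and the fenofibrate arrays (mean -3.06, limma adjusted p = 0.0198), and read -3.02 after rotation. Among the other late enzymes Tm7sf2 (-2.21), Sc5d (-2.14), Hsd17b7 (-2.03) and Ebp (-1.20) fell, with limma adjusted p from 0.0218 to 0.0377. Mvd (-2.59), Cyp51 (-1.62), Lss (-1.82) and Nsdhl (-1.76) lay below 0 on every array used without passing (limma adjusted p from 0.0517 to 0.077). For Lss the rotated value of HFC replicate 2 was 0.20, the only one of 10 rotated readings in this list above 0. The list median was -2.35 in HFC, -2.04 in lovastatin and -2.23 in fenofibrate mice.

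**Figure D2:**
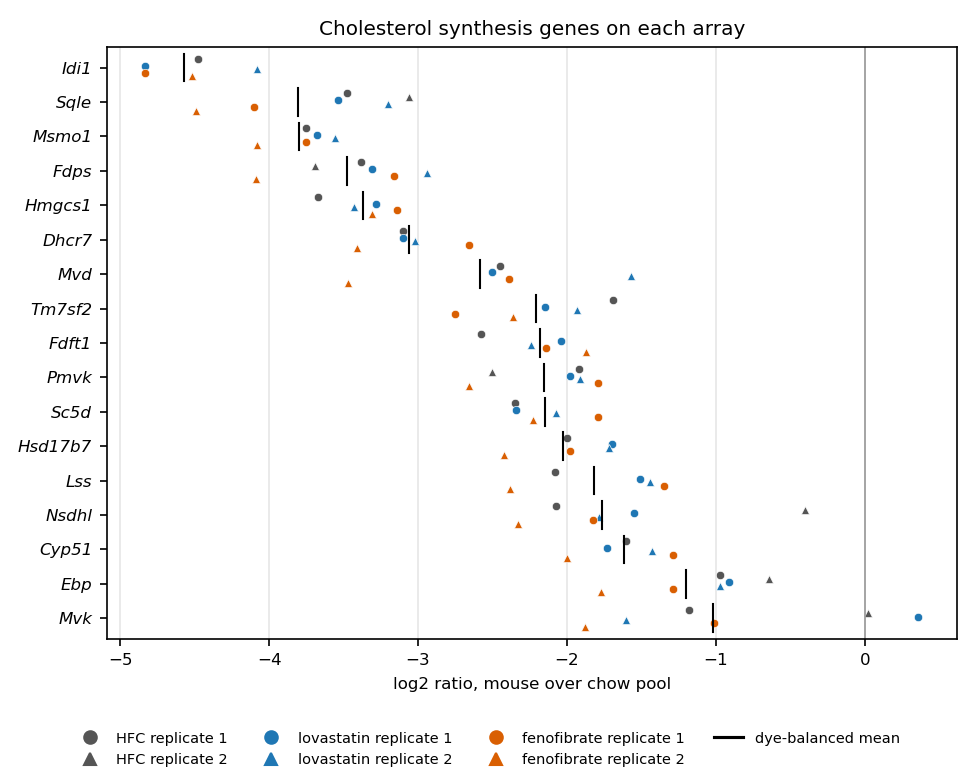
The 17 measured cholesterol synthesis genes, ordered by dye-balanced mean (black bar), with the log2 ratio of mouse over chow pool on the x axis. Points are single arrays, coloured by group and shaped by replicate, and all lie left of 0 apart from 2 for Mvk, at 0.02 and 0.36.

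Genes that sense and take up sterols moved in both directions. Insig2, which holds the SREBP escort in the endoplasmic reticulum, rose, at 2.02 and 1.94 on the HFC arrays, 1.30 and 1.03 on lovastatin and 0.95 and 1.17 on fenofibrate arrays (mean 1.32, SE 0.11, limma adjusted p = 0.0218). Both HFC arrays are above the other 4. Insig1, its paralogue and itself an SREBP target, was below 0 on all 6 arrays but widely spread, at -2.95 and -1.57, -2.39 and -1.45, and -1.03 and -2.23 (mean -1.86, SE 0.289, limma adjusted p = 0.0913). In the list of 10, 1 gene rose and 0 fell, 2 lay above and 3 below 0 throughout, and the median was -0.16. Of 9 sterol efflux and LXR target genes 1 rose and 0 fell. This was Abcg5, 1 of the 2 chains of the pump that exports sterols into bile, at 1.26 and 1.33 in HFC, 1.45 and 1.07 in lovastatin and 1.58 and 1.05 in fenofibrate mice (mean 1.30, SE 0.132, limma adjusted p = 0.0351). The 3 groups overlap completely for Abcg5.

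Transcripts of the enzymes at the entry and at the branch point of bile acid synthesis were lower, while bile acids themselves were not measured on these arrays. Cyp7a1, the rate-limiting enzyme, was at -1.67 and -1.40 on the HFC arrays, -1.96 and -2.16 on lovastatin and -2.11 and -2.67 on fenofibrate arrays (mean -2.09, SE 0.131, limma adjusted p = 0.0119). Cyp8b1, the sterol 12α-hydroxylase that makes cholic acid, was at -2.79 and -2.58, -3.18 and -2.42, and -2.81 and -3.09 (mean -2.85, SE 0.148, limma adjusted p = 0.00795). The fall of Cyp7a1 was smallest on the HFC arrays, whereas for Cyp8b1 the groups overlap. These were the only 2 of 24 bile acid genes to fall and 0 rose, while 5 lay above and 8 below 0 on every array used (median -0.20). Abcb11, the export pump for bile salts, stood just outside the threshold with 0.57 to 1.64 on 6 arrays (mean 1.02, limma adjusted p = 0.0513). It was among the nearest features outside the threshold, with Ly6c2 (-1.32, 0.0512) and Susd4 (-1.5, 0.0513). The nearest inside were Rnf103 (-1.0, limma adjusted p = 0.0488), F11 (-1.39, 0.0473) and Ndufab1 (0.85, 0.0465).

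Among fatty acid and triglyceride synthesis genes, Acss2, Acly and Acacb fell. Acss2, which makes acetyl-CoA from acetate, varied little on its 5 arrays, with -2.21 on HFC replicate 1, -2.55 and -2.28 on lovastatin and -2.50 and -2.58 on fenofibrate arrays (mean -2.43, SE 0.127, limma adjusted p = 0.0198). After rotation, HFC replicate 2 read -2.96 for it. Acly, ATP citrate lyase, was at -1.67 and -1.46, -0.92 and -1.34, and -1.84 and -2.32 (mean -1.71, SE 0.133, limma adjusted p = 0.0204). Acacb, acetyl-CoA carboxylase 2, was at -2.46, -3.06, -2.52, -1.39 and -2.07 on its 5 arrays (mean -2.18, limma adjusted p = 0.0389). Its rotated value on HFC replicate 2 was -0.02, and with it the call was lost (mean -1.87, limma adjusted p = 0.102). Fasn, the fatty acid synthase itself, ranged from -2.41 to -0.74 (mean -1.88, SE 0.288) and did not pass (limma adjusted p = 0.123). Scd1, the stearoyl-CoA desaturase, was at 0.19 and 1.09 in HFC, -0.28 and 0.25 in lovastatin and 1.14 and 0.13 in fenofibrate mice, and thus on both sides of 0 (mean 0.47, limma adjusted p = 0.515). Over the 23 genes of the list 3 fell, 0 rose, 8 lay below and 0 above 0 on every array used, and the median was -0.34.

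In fatty acid handling 6 genes rose and 1 fell. Acot1, a cytosolic acyl-CoA thioesterase and a classical PPARα target, was at 2.48 and 1.48 in HFC, 1.89 and 1.63 in lovastatin and 3.76 and 4.05 in fenofibrate mice (mean 2.89, SE 0.173, limma adjusted p = 0.0103). Fabp2, the intestinal-type fatty acid binding protein, was at 1.80 and 1.69, 1.58 and 1.35, and 2.58 and 2.26 (mean 2.01, SE 0.113, limma adjusted p = 0.00835). Lpl, lipoprotein lipase, was at 1.92 and 1.70, 0.68 and 1.29, and 2.54 and 2.12 (mean 1.86, SE 0.142, limma adjusted p = 0.0198). In all 3 genes the fenofibrate arrays are highest, yet the drug-free and lovastatin arrays also lie above 0. The Cyp4a enzymes, which hydroxylate the far end of fatty acids, rose with them: Cyp4a14 (1.28 on HFC replicate 1, 2.29 and 1.94 with lovastatin, 2.98 and 2.54 with fenofibrate), Cyp4a31 (0.59, 0.96 to 1.54, and 2.79 to 3.01) and Cyp4a10 (0.49 and 0.55, 1.01 and 0.58, 2.15 and 1.70). After rotation, HFC replicate 2 read 0.58 for Cyp4a14 and 0.55 for Cyp4a31, below their other arrays. The means of Cyp4a14, Cyp4a31 and Cyp4a10 were 2.23, 1.91 and 1.29, with limma adjusted p = 0.025, 0.0377 and 0.0338. These genes are relatives within 1 cluster, and their probes may read each other's transcripts. Cyp4f14, a relative outside the Cyp4a cluster, fell (-1.41, limma adjusted p = 0.0465). In the list of 22, 6 rose (background 0.17% higher) and 1 fell, and the median was 0.36.

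The oxidation pathways behind these enzymes had 0 members past the threshold. Over all features 0.566% passed, so 0 in lists of this size is near that share and sets them apart from no other list. In peroxisomal β-oxidation 0 of 17 genes passed, although 7 lay above and 1 below 0 on every array used and the median was 0.46. Ehhadh, the bifunctional enzyme, came nearest, with 1.03 in HFC replicate 1, 0.79 and 0.84 in lovastatin and 2.34 and 1.81 in fenofibrate mice (mean 1.50, limma adjusted p = 0.0513). Crat (0.88), Hsd17b4 (0.68) and Eci2 (0.67) had limma adjusted p of 0.114, 0.163 and 0.189. In mitochondrial fatty acid oxidation and ketogenesis 0 of 21 passed, 4 lay above and 2 below 0 throughout, and the median was 0.16. Its genes of smallest p were Hadhb (0.69), Slc25a20 (0.74), Acadm (0.60) and Cpt2 (0.62), with limma adjusted p from 0.108 to 0.211. For Hadhb and Acadm, HFC replicate 2 lay below 0. Pdk4, which spares glucose by blocking pyruvate dehydrogenase, averaged 0.06 with arrays from -0.58 to 0.58 (limma adjusted p = 0.92). Of 18 genes of lipid droplets and lipolysis 0 passed, 7 lay above 0 throughout and 0 below, and the median was 0.22. Plin5, a droplet coat protein of oxidative tissues, was at 1.43 and 1.28, 1.73 and 0.77, and 0.94 and 1.20 on HFC, lovastatin and fenofibrate arrays (mean 1.19, limma adjusted p = 0.0731). Hsd17b11 (1.06), Mgll (0.48) and Hsd17b13 (0.59) had limma adjusted p from 0.125 to 0.292.

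Of 17 apolipoprotein and lipoprotein assembly genes 1 fell and 0 rose, with 4 above and 7 below 0 on every array used. Apof, an apolipoprotein that inhibits cholesteryl ester transfer, was at -0.47 and -0.45 in HFC, -0.38 and -0.64 in lovastatin and -1.26 and -1.52 in fenofibrate mice (mean -0.94, SE 0.11, limma adjusted p = 0.0465). Its values in the first 2 groups are small, and the fenofibrate arrays lie apart from them.

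The largest fall of any named gene was that of Sult3a1, a sulfotransferase found at higher levels in livers of female mice. Its arrays read -4.91 and -3.50 in HFC, -5.46 and -4.88 in lovastatin and -5.80 and -6.34 in fenofibrate mice (mean -5.38, SE 0.235, limma adjusted p = 0.00795). Every array was far below 0, and the span of 2.84 between the arrays was the widest of all named genes past the threshold. Sult1e1, the oestrogen sulfotransferase, was at -2.19 and -0.96, -2.49 and -2.14, and -2.62 and -2.67 (mean -2.29, SE 0.196, limma adjusted p = 0.0218). HFC replicate 2 is the array nearest to 0 for both. Sult2a8, a liver sulfotransferase that acts on bile acids and is not in the list, fell with the opposite order, at -3.28 on HFC replicate 1, -3.43 and -2.91 on lovastatin and -2.33 and -1.96 on fenofibrate arrays (mean -2.69, limma adjusted p = 0.0207). In the list of 11 sulfotransferases 2 fell, 0 rose, and the median was -0.45.

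Among thyroid hormone and retinoid genes 2 of 21 fell and 0 rose. Dio1, the deiodinase that activates thyroxine, had the narrowest span of the named genes past the threshold: it was at -2.35 and -2.46 in HFC, -2.25 and -2.21 in lovastatin and -2.37 and -2.44 in fenofibrate mice, a span of 0.25 (mean -2.36, SE 0.101, limma adjusted p = 0.00795). Rdh11, a retinal reductase and SREBP target, was at -2.58 and -2.25, -3.21 and -2.66, and -2.48 and -2.59 (mean -2.60, SE 0.131, limma adjusted p = 0.00795). Its groups overlap too. The list had 1 gene above and 7 below 0 on every array used and a median of -0.16.

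Cytochrome P450 genes of drug and steroid metabolism split into rises and falls. Cyp2c55, an enzyme induced through PXR and CAR, was at 3.13 on HFC replicate 1, 1.46 and 2.32 on lovastatin and 2.34 and 2.32 on fenofibrate arrays (mean 2.42, SE 0.180, limma adjusted p = 0.0316). Cyp3a11, the textbook PXR target of mouse liver, was at 2.33 and 1.71, 0.58 and 1.48, and 1.42 and 1.76 (mean 1.56, SE 0.181, limma adjusted p = 0.0465). Cyp3a25 (1.16 to 2.17, mean 1.75) and Cyp3a41a (0.34 to 2.03, mean 1.28) rose as well, with limma adjusted p = 0.0198 and 0.0389. In Cyp2c55, Cyp3a11, Cyp3a25 and Cyp3a41a the lowest value came from lovastatin replicate 1, the widest array. Cyp3a16, a relative expressed most in early life, fell, with values from -3.15 to -2.38 on 5 arrays (mean -2.78, limma adjusted p = 0.027). Its HFC replicate 2 read -1.65 after rotation, outside that range. Cyp2c40 fell with arrays from -1.62 to -0.86 (mean -1.24, limma adjusted p = 0.0218). The Cyp3a and Cyp2c genes are families of close copies, so probes of 1 gene may take signal from another, and a rise of 1 copy beside a fall of the next is uncertain to that extent. Over 26 genes 4 rose and 2 fell, 6 lay above and 11 below 0 throughout, and the median was -0.06.

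Among conjugation and antioxidant genes, 2 transferases and 2 NRF2 targets rose and 0 fell. Gstm1, a glutathione transferase, was at 2.52 and 2.87 in HFC, 0.91 and 2.38 in lovastatin and 2.11 and 2.05 in fenofibrate mice (mean 2.12, SE 0.223, limma adjusted p = 0.0377). Gstm3, a member of the same family whose probes may share signal, was at 2.67 on HFC replicate 1, 1.31 and 2.36 on lovastatin and 2.20 and 2.18 on fenofibrate arrays (mean 2.22, SE 0.204, limma adjusted p = 0.0465). For both, lovastatin replicate 1 is the lowest array. These were the 2 of 26 glutathione and glucuronosyl transferase genes to rise, with 0 falling, 8 above and 3 below 0 throughout and a median of 0.27. Of 22 NRF2 target and glutathione synthesis genes 2 rose, 0 fell, 10 lay above 0 on every array used and 0 below, and the median was 0.35. Ephx1, microsomal epoxide hydrolase, was at 1.34 and 1.51, 1.08 and 1.30, and 1.52 and 1.30 (mean 1.36, SE 0.11, limma adjusted p = 0.0209). Gclc, the catalytic chain of the first enzyme of glutathione synthesis, was at 1.57 and 1.06, 1.20 and 1.63, and 1.51 and 1.35 (mean 1.40, SE 0.134, limma adjusted p = 0.0295). Neither gene separates the groups.

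In amino acid and 1-carbon metabolism 6 genes fell and 0 rose. Of 28 amino acid catabolism and urea cycle genes 2 fell, 0 rose, 14 lay below 0 on every array used and 0 above, and the median was -0.34. Got1, cytosolic aspartate aminotransferase, was at -1.62 and -1.57 in HFC, -0.71 and -1.58 in lovastatin and -1.45 and -1.68 in fenofibrate mice (mean -1.47, SE 0.155, limma adjusted p = 0.0377). Prodh, which starts proline breakdown, stayed between -1.84 and -1.32 on 5 arrays (mean -1.68, limma adjusted p = 0.0389). Of 21 methionine and choline genes 4 fell, 0 rose, 3 lay above and 11 below 0 throughout, and the median was -0.50. Bhmt, which remethylates homocysteine with betaine, was at -1.66 and -2.09, -1.97 and -2.18, and -1.67 and -1.83 (mean -1.86, SE 0.119, limma adjusted p = 0.0126). Gnmt, the glycine methyltransferase that disposes of methyl groups, was at -1.01 and -1.26, -1.08 and -0.98, and -2.13 and -2.53 (mean -1.71, SE 0.118, limma adjusted p = 0.0175). The groups overlap for Bhmt, while both fenofibrate arrays of Gnmt lie below the other 4. Nnmt, which methylates nicotinamide, ranged from -2.64 to -0.86 (mean -2.08, limma adjusted p = 0.0414). Gamt, the last enzyme of creatine synthesis, was at -1.09 and -0.46, -1.21 and -1.16, and -1.23 and -1.27 (mean -1.11, limma adjusted p = 0.0465). Its probe is spotted 10 times with a single repeated value, and without HFC replicate 2 for such probes its call was lost.

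In glucose metabolism G6pc, the catalytic chain of glucose-6-phosphatase, fell, but unevenly, with -0.19 and -1.34 in HFC, -1.34 and -1.32 in lovastatin and -2.17 and -2.78 in fenofibrate mice (mean -1.76, SE 0.198, limma adjusted p = 0.0435). It was the only 1 of 20 genes of its list to pass, and 6 lay below and 0 above 0 throughout (median -0.26). Mup5, a major urinary protein of the growth hormone list, was at -2.37 on HFC replicate 1, -2.69 and -2.37 on lovastatin and -3.91 and -4.15 on fenofibrate arrays (mean -3.24, SE 0.134, limma adjusted p = 0.0103). Many Mup genes are close copies of each other, and whether this probe also reads others than Mup5 was not tested. With Sult3a1, counted above, 2 of 23 genes of this list fell and 0 rose, 4 lay above and 7 below 0 throughout, and the median was -0.22. Nr4a1, an immediate-early nuclear receptor, was at -1.59 and -1.33, -1.01 and -1.65, and -2.07 and -2.01 (mean -1.72, SE 0.135, limma adjusted p = 0.0207), the 1 of 25 nuclear receptor genes to pass (median 0.01).

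Among secreted plasma proteins of the coagulation and acute phase lists, 1 gene passed the threshold. F11, coagulation factor XI, was at -1.02 on HFC replicate 1, -0.93 and -1.22 on lovastatin and -1.83 and -1.65 on fenofibrate arrays (mean -1.39, SE 0.130, limma adjusted p = 0.0473). It was the 1 of 28 coagulation and complement genes to fall, with 0 rising, 8 below and 0 above 0 throughout and a median of -0.27. Of 30 acute phase and iron genes 0 passed (0.566% over all features), 2 lay above and 6 below 0 throughout, and the median was -0.18. Hamp, the iron hormone hepcidin, was at -0.90 and -2.24, -0.36 and -0.56, and -2.06 and -2.56 (mean -1.66, limma adjusted p = 0.058). Apcs (-0.65), Mt1 (-1.20) and Slc40a1 (0.71) had limma adjusted p from 0.0953 to 0.108. Mt1, a metallothionein, was not shared, with -0.05 and 1.08 on the HFC arrays against -2.28 and -2.91 on lovastatin and -1.27 and -1.43 on fenofibrate arrays. Of 30 interferon response and antigen processing genes 0 passed, 10 lay below and 1 above 0 throughout, and the median was -0.30. Gbp3 (-1.32), Isg15 (-0.96), Psmb9 (-0.80) and Ifit1 (-1.0) were below 0 on every array used, with limma adjusted p from 0.0526 to 0.0936.

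Most cell cycle genes had a mean above 0, and 0 of them passed (0.566% over all features). Of 33 measured genes 32 had a mean above 0, 14 lay above 0 on every array used and 0 below, and the median was 0.77, the highest of the lists examined. That median was 0.45 on HFC replicates 1 and 2 each, 0.02 and 0.76 on the lovastatin arrays and 0.63 and 1.09 on the fenofibrate arrays, so it was near 0 on the widest array alone. Aurka, a mitotic kinase, was at 0.62 and 0.64 in HFC, 0.88 and 1.20 in lovastatin and 0.91 and 1.42 in fenofibrate mice (mean 1.0, SE 0.127, limma adjusted p = 0.0562). Cdkn1a, which encodes the cell cycle inhibitor p21, was at 2.20 on HFC replicate 1, 0.48 and 1.05 on lovastatin and 1.05 and 1.19 on fenofibrate arrays (mean 1.30, limma adjusted p = 0.0762). This inhibitor lay on the same side of 0 as the genes that drive the cycle. Bub1b, of the spindle checkpoint (0.80, limma adjusted p = 0.107), and Mcm6, of the replication helicase (1.09, limma adjusted p = 0.112), also stayed above 0 on every array used. Outside the list, Spc25, a kinetochore protein, rose, with 1.75 on HFC replicate 1, 2.09 and 1.68 on lovastatin and 2.49 and 2.60 on fenofibrate arrays (mean 2.18, SE 0.136, limma adjusted p = 0.0218). Nek2, a centrosome kinase chosen after its values were seen, rose by 1.54 with values from 0.65 to 2.20 on 5 arrays (limma adjusted p = 0.0465). Its HFC replicate 2 read 0.57 after rotation.

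**Figure D3:**
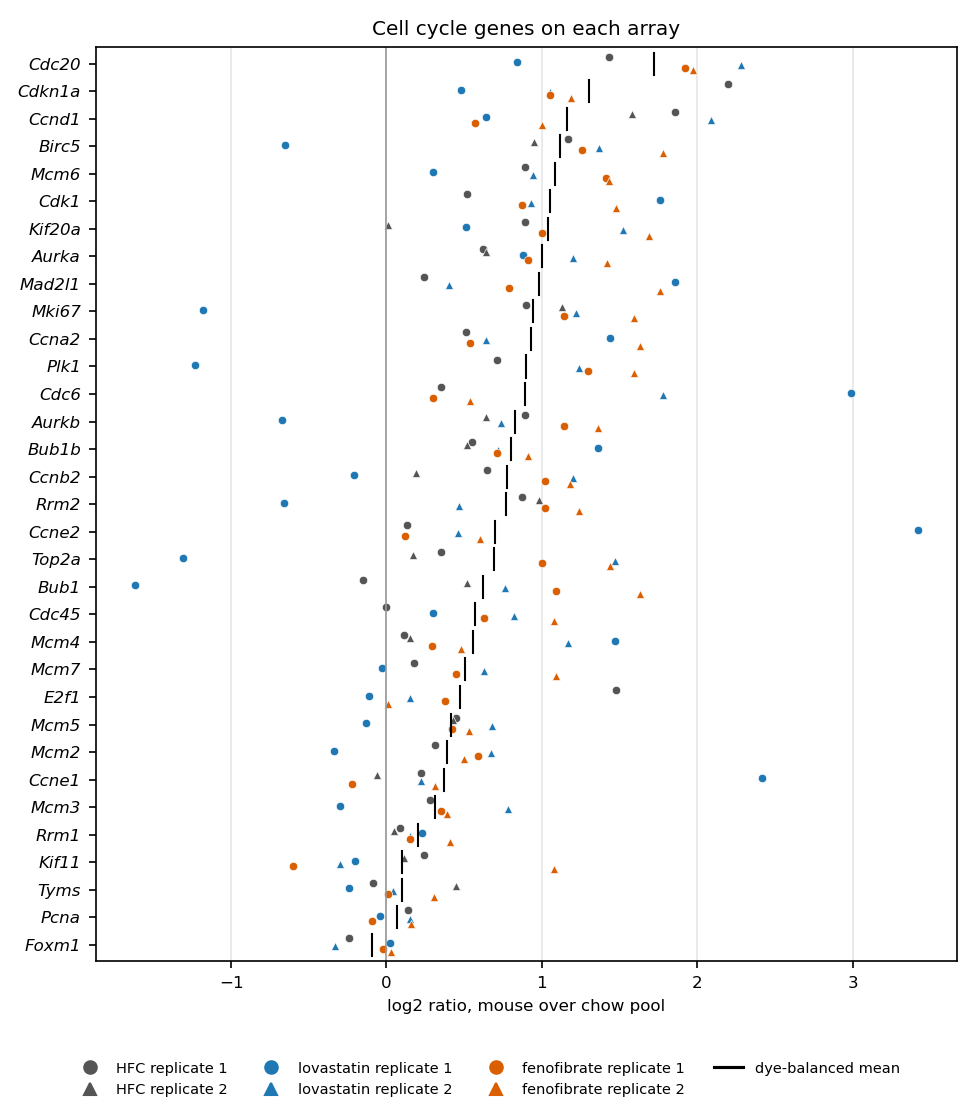
The 33 measured cell cycle genes, ordered by dye-balanced mean (black bar), with the log2 ratio of mouse over chow pool on the x axis and 1 point per array. Most points lie right of 0, Foxm1 is the gene whose mean is below 0, and the blue circles of lovastatin replicate 1 hold most of the values below -0.5 and the 2 highest values, 3.42 for Ccne2 and 2.99 for Cdc6.

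Of 54 cytosolic ribosomal protein genes 0 passed, 17 lay above 0 throughout and 0 below, and the median was 0.18, at 0.29 in HFC, 0.34 in lovastatin and 0.02 in fenofibrate mice. Of 45 respiratory chain genes 0 passed (median 0.10), as did 0 of 25 unfolded protein response genes (0.14), 0 of 17 circadian clock genes (-0.12) and 0 of 33 extracellular matrix genes (-0.03). The smallest limma adjusted p in these 5 lists were 0.278, 0.401, 0.232, 0.189 and 0.0751 in the order given. With 0.566% of all features past the threshold, 0 in lists of this size is near that share. Over the pathway lists, the share of members with 1 sign on every array used ran from 6.06% in extracellular matrix to 94.1% in cholesterol synthesis, beside 14.4% over all features. That background was 12% for features on 6 arrays and 17% for those on 5, and the lists mix both kinds.

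**Figure D4:**
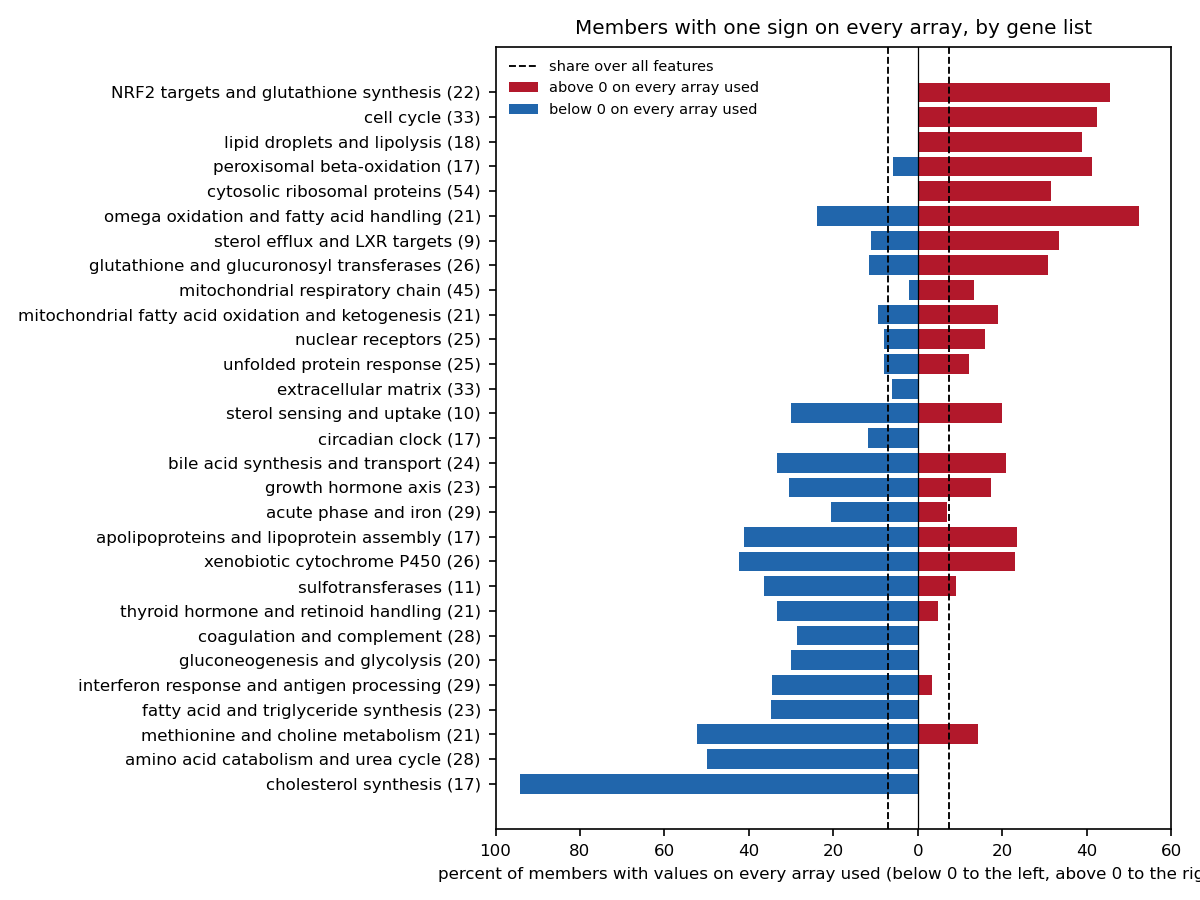
Share of the members of each pathway list with values on every array used (number in brackets) that lay above 0 (red, right) or below 0 (blue, left) on every array used, in percent. Dashed lines mark the shares over all features, 7.32% above and 7.11% below, and cholesterol synthesis stands at the bottom with 94.1% below.

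Cell type markers were set beside these groups, since in whole liver fewer cells of a type and less RNA per cell cannot be told apart. Of 9 hepatocyte markers 8 had a mean below 0, with a median of -0.53 and per-array medians from -0.90 to 0.04, and 0 passed. Their median has the sign of those of the amino acid, methionine, coagulation, acute phase and apolipoprotein lists, and their part in those results was not tested. Markers of Kupffer cells and macrophages (0 of 22, median -0.12), endothelium (0 of 15, -0.06), stellate cells (0 of 13, -0.11), lymphocytes (0 of 17, -0.17) and neutrophils (0 of 10, 0.06) had no member past the threshold, which is near the 0.566% over all features. Of 12 cholangiocyte and ductular markers 2 rose. Krt23, a keratin, was at 1.76 on HFC replicate 1, 2.27 and 1.65 on lovastatin and 3.34 and 2.83 on fenofibrate arrays (mean 2.47, SE 0.174, limma adjusted p = 0.027), and 2.10 on HFC replicate 2 after rotation. Prom1, a membrane protein of ductular and progenitor cells, was at 2.23 and 1.17, 2.47 and 2.0, and 1.78 and 1.60 (mean 1.83, SE 0.184, limma adjusted p = 0.034). The defining bile duct markers Krt7 (0.02), Krt19 (0.04), Epcam (0.03) and Sox9 (-0.27) stayed near 0, and the list median was 0.03. Of 6 erythroid markers 1 fell: Nfe2, a transcription factor of blood cells, was at -2.52 and -1.73, -1.78 and -2.61, and -2.24 and -3.06 (mean -2.40, SE 0.211, limma adjusted p = 0.0239). The globin gene Hba-a1 (-0.50) and the erythroid enzyme gene Alas2 (-0.04) did not pass (limma adjusted p = 0.549 and 0.941).

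How evenly the 3 groups shared the response differed between genes. The narrowest spans among the named genes past the threshold were those of Dio1 (0.25), Acss2 (0.37), Dus1l (0.40), Tmem97 (0.43) and Ephx1 (0.44). The span of Acss2 rests on 5 arrays, and its HFC replicate 2 read -2.96 after rotation, outside that span. Dus1l, a tRNA-modifying enzyme, was at 0.98 and 1.30, 0.91 and 1.02, and 1.03 and 1.31 (mean 1.11, limma adjusted p = 0.0377), and Tmem97, a sterol-regulated membrane protein, ranged from -1.24 to -0.81 (mean -0.97, limma adjusted p = 0.0438). The widest were Sult3a1 (2.84), G6pc (2.59), Acot1 (2.57), Cyp4a31 (2.42) and Tafa2 (2.08). Tafa2, a secreted protein gene, was at -2.73 and -1.45, -2.10 and -2.49, and -2.64 and -3.53 (mean -2.64, limma adjusted p = 0.025). Of the 110 called features 77 had their larger change in the fenofibrate group, compared with the mean of the other groups. The same values chose the 110, and no share over all features was taken, so nothing is concluded from this count. Drug and dye cannot be told apart in it. A test of the difference among the 3 groups passed in 0 of 19447 features by limma (0%). An unadjusted p under 0.05 was found for 584, and 31 of those were among the 110. The 584 are fewer than such a cut lets through when no feature differs. The 5 features of smallest p in that test, which all had a limma adjusted p of 0.895, were Gse1, Chst11, Mogat1, Ifit1bl2 and Hoxa9. They were not part of the shared response, since their arrays lie on both sides of 0. On simulated data the test recovered 54% of differences of 4 log2 units at this size, so smaller differences may have been missed.

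Taken 1 group at a time, the response was mostly out of reach of the test. By limma against the pool 0 features passed in HFC mice (921 at an unadjusted p under 0.05) and 0 in lovastatin mice (2057), and 12 passed in fenofibrate mice (0.0617%), all 12 also called in the shared contrast. By name these were Sult3a1, Idi1, Sqle, Msmo1, Fdps, Mup5 and Dio1, which fell, and Fabp2 and Acot1, which rose, beside 3 unnamed probes. The count at an unadjusted p under 0.05 in HFC mice is below what such a cut lets through when no feature differs. In lovastatin mice the count is above that. The single-group values hold any dye effect of a gene, which the dye-balanced contrast does not.

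**Figure D5:**
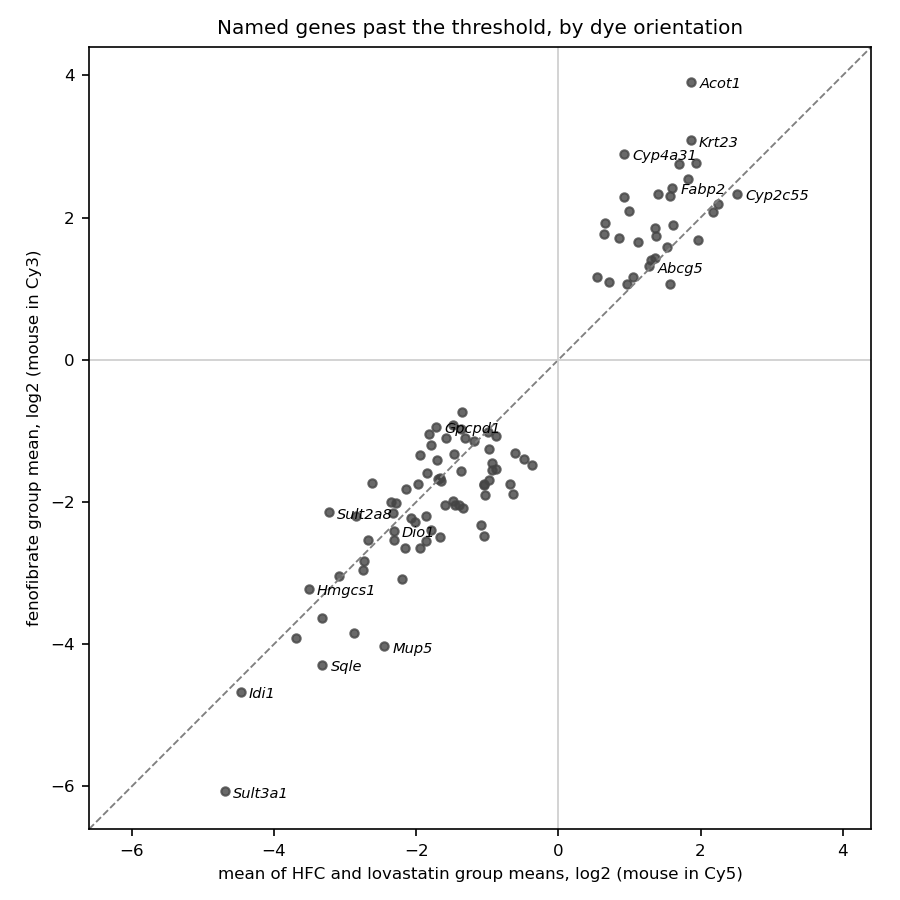
Each point is 1 of the 101 named genes past the threshold, with the mean of the HFC and lovastatin group means (mouse in Cy5) on the x axis and the fenofibrate group mean (mouse in Cy3) on the y axis, both log2. All points lie at the lower left or upper right of the zero lines, along the dashed line of equality. Among the genes displaced towards a larger change in the fenofibrate group, Acot1 and Cyp4a31 lie above that line and Mup5 and Sult3a1 below it.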

How the data were processed

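Liver RNA of 6 mice was hybridised against 1 chow pool, with 0.5 µg of total RNA per labelling, per the labels' protocols. The deposited table holds 1 log2 ratio per spot and array, as made by the authors; the log base is by convention, and the sources used here do not give the scanner, the background correction or the normalization. No intensities were used, so dim probes were not filtered, and 2 arrays a group limit the precision. Replicates are separate mice per the labels.

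Of 22575 spots, 726 had no value and 561 were repeated controls, leaving 21288 probes. The platform annotation, which can be old, gave 1 symbol for 18658 spots, several for 30 and none for 3887; 18445 matched RefSeq by Entrez number, with 0 new symbols. Averaging the probes of a gene gave 16887 genes, 2630 unnamed probes stayed single, and 19447 of the 19517 features could be fitted. Displaced blocks of HFC replicate 2 were left out. The fit of group means used R 4.3.3, limma 3.58.1 and statmod 1.5.0 (3 residual and 2.38 prior degrees of freedom), adjusted by Benjamini-Hochberg, threshold 0.05, without a replicate block. Same-numbered replicates did not deviate together (r from -0.02 to 0.03). The 95% interval reached 0.412 to either side of the mean at the median. On simulated data, shared changes of 1, 2 and 4 log2 units were recovered in 14.9%, 77.6% and 87.9% of genes, with the same spread on every array. Python 3.11.15, numpy 2.4.6, pandas 2.3.3 and matplotlib 3.10.9 prepared the data. Promoters came from RefSeq (GRCm38.p6).

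Members, lists and tests were chosen with earlier results of these data known. Named genes are the 15 largest rises and falls past the threshold, per list up to 6 genes past it (or up to 4 of smallest p), the 5 narrowest and 5 widest, the 5 of smallest p among groups, and the fixed genes Sqle, Cyp7a1, Cyp4a10, Cyp4a14, Pdk4, Scd1, Fasn, Abcg5, Insig1, Insig2 and Krt23; other fixed genes are not reported here. All cholesterol synthesis genes, the genes nearest the threshold, Abcb11, Cyp4f14, Nek2, the bile duct and erythroid markers named without passing and the genes outside the lists were added after their values were seen. Alternatives covered the displaced blocks, centring, quantile normalization, single probes, noisy features, a robust prior, array weights, a replicate block, the sign of the fenofibrate arrays, weights, dye means and each array left out.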

Additional observations from a re-analysis of the deposited data

Results flagged for a closer look

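In 6 named genes the 2 arrays of 1 group lay on one side of 0 and those of another group on the other side. The difference between the groups was tested for each by the test among the 3 groups, and none passed (limma adjusted p = 0.895, and 0.975 for Pdk4). Gse1 was 2.46 higher in fenofibrate (0.21) than in lovastatin mice (-2.25). Ifit1bl2 was 1.89 higher in fenofibrate (0.15) than in lovastatin mice (-1.75). Mogat1, a monoacylglycerol acyltransferase, was 2.81 higher in fenofibrate (2.37) than in lovastatin mice (-0.44). Chst11, a chondroitin sulfotransferase, was 2.29 higher in fenofibrate (1.67) than in HFC mice (-0.62). Hoxa9 differed by -1.92 between lovastatin (-1.18) and HFC mice (0.74), and by 2.58 between fenofibrate (1.40) and lovastatin mice. Pdk4 differed by 0.19 between fenofibrate (0.15) and lovastatin mice (-0.04), less than the spread of its HFC arrays. In the comparisons with fenofibrate, drug and dye cannot be told apart.

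An unnamed control spotted 10 times, outside the features tested, had ratios far from 0 on every array. It read -4.20 and -5.84 on the HFC arrays, -9.71 on lovastatin replicate 1, -4.32 on lovastatin replicate 2, and 4.83 and 4.95 on the fenofibrate arrays, so its sign followed the dye orientation. What the control contains is not given in the sources used here. Groups of 2 arrays are too small for a test of outlying samples, so naming 2 arrays as standing apart is a description only. HFC replicate 1 correlated more with lovastatin replicate 2 (0.508) than the replicates of any group did with each other. Those correlations were 0.246 in HFC, 0.189 in lovastatin and 0.402 in fenofibrate mice.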

How the results depend on the processing

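The 110 features called in the shared diet contrast have the same sign on every array used, so settings that only leave out or reweight arrays cannot turn their direction. With displaced blocks as deposited or rotated back, median centring or quantile normalization, 110 of 110 kept it. Their count stayed within 1.5 times with median centring (109), single probes (115), a robust prior (100), equal group weights (105) and HFC replicate 2 left out for repeated probes (109). It was 67 with displaced blocks as deposited (61 of the 110 among them), 191 with them rotated back (108), 196 with quantile normalization (100), 346 without the noisiest 10% of features (110), 230 with array weights (110), 287 with 2 dye means (109), and 22 without both arrays that stand apart, a setting chosen after seeing the data like that for repeated probes. With the replicate number as a block it was 0; these numbers do not pair the samples, and that fit has fewer residual degrees of freedom. Leaving out 1 array gave 0 to 966. The difference among the groups stayed at 0 except for 17 with the sign turned, and 0 to 1012 leaving out 1 array. HFC against the pool gave 5 with blocks rotated back, 9 with quantile normalization, 20 without the noisiest features, and 0 to 8 leaving out 1 array. Lovastatin against the pool gave 2, 4, 43 and 0 to 4022 in the same settings. For fenofibrate against the pool, 12 became 32 with blocks rotated back, 101 without the noisiest features, 111 with array weights, 0 with single probes, a robust prior or the replicate block, and 0 to 54 leaving out 1 array. The cause of these shifts was not tested. With 3 residual degrees of freedom and no intensities, small changes and dim probes are beyond these data.

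Once both fenofibrate arrays had their sign turned, 0 features passed and 33 of the 110 kept their direction, since that contrast sets fenofibrate against the other groups. Of the genes chosen by the naming rule, 45 that had passed changed sign, and they are given here. Those that had fallen became Sult3a1 0.69, Idi1 0.10, Sqle 0.49, Msmo1 0.12, Fdps 0.15, Lrtm1 0.48, Mup5 0.79, Cyp8b1 0.10, Cyp3a16 0.05, Tafa2 0.45, Cyp7a1 0.30, Dio1 0.04, Acss2 0.11, Tmem97 0.09, G6pc 0.71, Acly 0.37, Apof 0.45, Sult1e1 0.35, Cyp2c40 0.31, Got1 0.10, Prodh 0.03, Gnmt 0.62, Nnmt 0.41, Gamt 0.14, F11 0.35, Nr4a1 0.32 and Nfe2 0.24. Those that had risen became Acot1 -1.02, Krt23 -0.61, Rad51b -0.41, Cyp4a14 -0.53, Spc25 -0.36, Fabp2 -0.41, Unc79 -0.37, Cyp4a31 -0.99, Lpl -0.47, Cyp3a25 -0.14, Ifi27l2b -0.25, Cyp4a10 -0.63, Abcg5 -0.02, Dus1l -0.06, Ephx1 -0.05, Cyp3a41a -0.43, Cyp3a11 -0.03 and Gclc -0.03.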

Other observations

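Among named genes past the threshold in the shared contrast, 47 belong to none of the gene lists, and those described here were chosen after their values were seen. Several are transporters, and those named here were lower. Aqp8, a water channel of the canalicular membrane, was at -1.95 and -2.18 in HFC, -2.10 and -2.33 in lovastatin and -1.43 and -2.21 in fenofibrate mice (mean -1.98, SE 0.149, limma adjusted p = 0.0198). Slc2a5, the fructose transporter, ranged from -2.13 to -0.96 (mean -1.43, limma adjusted p = 0.0251), with both fenofibrate arrays nearest to 0. Slc22a7, an organic anion transporter (-1.81), Slc1a2, a glutamate transporter (-1.71), and Slc38a3, a glutamine transporter (-1.16), fell with limma adjusted p from 0.0389 to 0.0465. Slc25a25, a mitochondrial carrier, fell least of these (-0.93, limma adjusted p = 0.0455), at -0.44 and -0.24, -0.34 and -0.48, and -1.56 and -1.40.

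Further genes that fell encode secreted proteins. Serpina6, the corticosteroid-binding globulin, was at -1.59 and -1.83 in HFC, -1.37 and -1.15 in lovastatin and -0.89 and -0.93 in fenofibrate mice (mean -1.20, SE 0.108, limma adjusted p = 0.0251). Pon1, paraoxonase of high-density lipoprotein (-1.73), Enho, which encodes the peptide adropin (-2.15), and the fetuins Fetub (-1.39) and Ahsg (-1.26) fell with limma adjusted p from 0.0218 to 0.0455. Ppp1r3g, a glycogen-targeting subunit of protein phosphatase, ranged from -2.84 to -2.02 on 5 arrays (mean -2.24, limma adjusted p = 0.0218). Gulo, the last enzyme of vitamin C synthesis, fell too (-1.33, limma adjusted p = 0.0465). Lrtm1, a leucine-rich repeat membrane protein, had one of the larger falls, at -2.89 on HFC replicate 1, -2.41 and -3.33 on lovastatin and -3.62 and -4.07 on fenofibrate arrays (mean -3.36, limma adjusted p = 0.0209). Dct, an enzyme of melanin synthesis, read -3.33 to -2.13 on 5 arrays (mean -2.53, limma adjusted p = 0.0218), and -1.75 on HFC replicate 2 after rotation.

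Rises outside the lists were fewer. Rad51b, a recombination protein, was at 1.52 on HFC replicate 1, 2.72 and 2.01 on lovastatin and 2.99 and 2.55 on fenofibrate arrays (mean 2.36, SE 0.177, limma adjusted p = 0.0325), but its rotated value on HFC replicate 2 was 0.12. Unc79, a partner of a neuronal sodium leak channel, was at 2.0 and 1.76, 1.18 and 1.37, and 1.84 and 2.78 (mean 1.94, limma adjusted p = 0.0218). S100g, the calcium-binding protein calbindin-D9k, was at 1.41 and 0.48, 0.63 and 1.15, and 2.17 and 2.41 (mean 1.60, limma adjusted p = 0.0404). Ifi27l2b (1.61) and Cd9, a tetraspanin (1.01), rose with limma adjusted p = 0.0198 and 0.0409. One unnamed probe had the second highest mean of all features past the threshold, 2.80, at 3.90 on HFC replicate 1, 2.63 on average with lovastatin and 2.33 on average with fenofibrate, and read 4.57 on HFC replicate 2 after rotation.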
